A study of Mus musculus with 6 samples.

Results

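The genes described here encode fatty acid desaturases and elongases. They are 10 rows of the count table, chosen by name from its 55385 mouse gene IDs: the desaturases Fads1, Fads2, Fads3, Fads6, Scd1 and Scd2 and the elongases Elovl1, Elovl5, Elovl6 and Elovl7. All 10 passed the filter on low counts, which left 18504 genes to test. The labels name the cells as PDVC57, an established squamous carcinoma line grown from mouse keratinocytes. The 3 libraries of the first group carry a Sox2 knockout and the 3 of the second a Sox2 overexpression. The series text speaks of Sox2-low and Sox2-high carcinoma cells taken from grafted tumours, and asks which genes under Sox2 could act on neutrophils. Whether the RNA was taken from cultured cells or from grafts is not settled by the labels. The labels give no age, host or time, do not say how Sox2 was removed or supplied or whether a group is 1 clone, and name no library with unmodified Sox2. A difference is therefore between the 2 modified states. Nothing states that the libraries of a group came from separate tumours or cultures, so p-values measure only the spread between these libraries.

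Desaturases insert a double bond into a lipid chain, which for Scd1, Scd2, Fads1 and Fads2 is a fatty acyl chain bound to coenzyme A. Elongases catalyse the step that lengthens such an acyl chain by a pair of carbons. The Scd enzymes turn saturated into monounsaturated fatty acids. Fads2 and Fads1 act in turn, with an elongation by Elovl5 between them, to make arachidonic acid and other polyunsaturated fatty acids, the precursors of prostaglandins and leukotrienes. Elovl6 lengthens saturated chains of ordinary length, while Elovl1 and Elovl7 make the longer chains that go into ceramides. In skin, such lipids form the water barrier and the sebum.

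Several of these genes are copies of each other, and their reads are told apart by letters that differ. The longest run common to the coding sequences of Fads2 and Fads3 was 54 bases (bases 1116 to 1169 of the Fads2 and 1131 to 1184 of the Fads3 coding sequence, GENCODE M21). The last 17, in capitals, also occur in Fads1. Between Scd1 and Scd2 the longest common run was 147 bases (523 to 669 of the Scd1 and 532 to 678 of the Scd2 coding sequence). These runs are shown because the genes of each pair differed in how they changed.

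Fads2 and Fads3: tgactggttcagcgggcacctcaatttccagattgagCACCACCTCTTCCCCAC

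Scd1 and Scd2: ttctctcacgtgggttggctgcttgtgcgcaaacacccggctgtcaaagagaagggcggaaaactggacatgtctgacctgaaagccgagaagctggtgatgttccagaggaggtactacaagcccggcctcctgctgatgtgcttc

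Over whole transcripts, words of 31 letters that also occur in another gene made up 0% of Fads1 and Elovl5, 0.729% of Fads2, 0.621% of Fads3, 0.816% of Elovl1 and 0.776% of Elovl7. The share was 3.99% for Fads6, 6.52% for Elovl6, 6.81% for Scd2 and 8.18% for Scd1. The gene sharing most words with Scd1 and with Scd2 was Scd3, and the one sharing most with Elovl6 was the processed pseudogene Gm11295, which had at most 1 count in any library. Counts of Scd1, Scd2 and Scd3 could thus be split differently by another counting method. The exons of Elovl1 overlap those of Cdc20 on the other strand by 53 bases, and those of Elovl6 overlap Gm35986 by 34 bases.

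The libraries held 31247976 to 38543221 counts over mouse genes. Sox2 had 25 to 49 counts in a knockout library and 2566 to 4095 in an overexpression library, in the order of the labels. All 10 markers of a fibroblast list were lower with overexpression. Their summed level was 59022.5 CPM (counts scaled to a common total, with TMM-normalized library sizes) in knockout replicate 1, 85898 in replicate 2 and 80010 in replicate 3, against 265 to 425 CPM in the overexpression libraries. Of 30 epithelial markers 21 were higher and 0 lower, 9 missed the threshold, and the list summed to 6674 to 10214 CPM with knockout and 17327 to 22206 CPM with overexpression. Krt8, the most abundant of them, was present in both groups, at 1861 ± 242 and 3548 ± 1135 CPM (SD, n = 3 each). Of 8 endothelial markers 6 were tested, 5 were lower (Pecam1, Cdh5, Kdr, Vwf and Cldn5) and 0 higher, with sums of 30.4 to 116 CPM and 12.3 to 19.6 CPM. Tek, which did not pass the threshold, gave the largest part of the overexpression sums. It was at 9.67, 24.7 and 34.4 CPM with knockout and at 16.9, 9.34 and 15.1 CPM with overexpression. Of 10 leukocyte markers 5 were tested, 3 were lower (Ptprc, Nkg7 and Itgam) and 0 higher, with sums of 22.5 to 140.2 CPM and 13.7 to 28.3 CPM. Of 10 adipocyte markers 4 were tested, 2 were higher (Lipe and Pnpla2) and 1 lower (Fabp4), with sums of 79.8 to 85.5 CPM and 118 to 186 CPM, to which the lipase Pnpla2 gave the largest part. The defining gene Adipoq had 0 counts in each knockout library (up to 3 counts are allowed by a count of 0) and Plin1 lay between 0.203 and 1.18 CPM in all libraries. Of 9 sebocyte markers 4 were tested, 1 was lower (Krt79) and 0 higher, with sums of 7.70 to 15.6 CPM and 3.75 to 6.99 CPM. Its defining gene Mc5r was at 0.298 CPM or less in every library, and Awat1 had 0 counts in each. In bulk RNA, fewer cells of a type and less RNA per cell cannot be told apart. Whether the carcinoma cells themselves or other cells carried the marker transcripts was not tested. The part that transcripts of the fibroblast, endothelial and leukocyte lists in the knockout libraries have in the results below was not tested.

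Of the 10 genes, 2 rose with overexpression (Fads1 and Fads2), 3 fell (Scd1, Fads6 and Elovl5) and 5 did not pass the threshold of an adjusted p of 0.05 in the edgeR quasi-likelihood test. Among all tested genes 31.6% passed, 13.6% as higher and 18.0% as lower. The same 5 genes were the ones whose groups did not overlap, which held for 50.9% of all tested genes, 24.4% as higher and 26.5% as lower. Non-overlap was thus as frequent among the 10 as among all genes. The median log2 fold change was 0.061 over the 10 genes and -0.016 over all tested genes, so the family did not move one way.

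**Figure D1:**
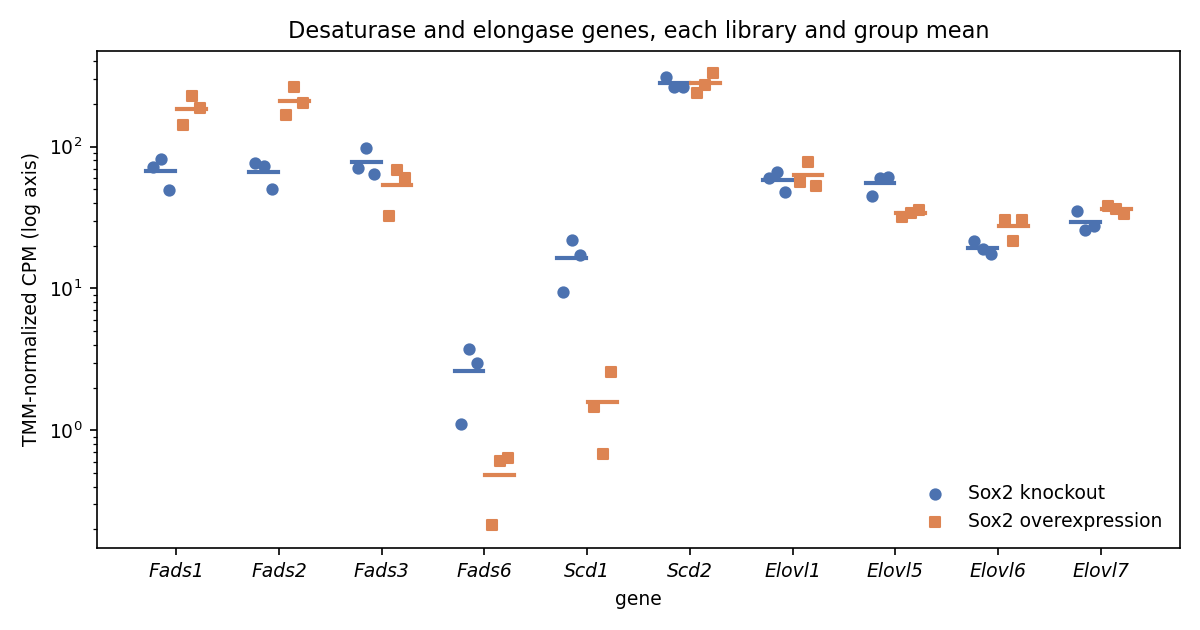
TMM-normalized CPM of each gene (log axis) in the 3 Sox2 knockout libraries (circles) and the 3 overexpression libraries (squares), with horizontal lines at the group means. Fads1 and Fads2 lie higher and Scd1, Fads6 and Elovl5 lower in all 3 overexpression libraries than in any knockout library.

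Fads2, which carries out the first and rate-limiting desaturation of the essential polyunsaturated fatty acids, was at 76.2, 73.5 and 50.4 CPM in knockout replicates 1, 2 and 3. It reached 168, 264 and 203 CPM in overexpression replicates 1, 2 and 3. Every overexpression library was above every knockout library, and the group means of 66.7 ± 14.2 and 212 ± 48.5 CPM (SD, n = 3 each) differed 3.17-fold in the fit. On the log2 scale the difference was 1.67 ± 0.23 (standard error; adjusted p = 0.000683).

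Fads1, the desaturase that makes arachidonic acid from its immediate precursor, was at 71.8, 81.8 and 49.5 CPM with knockout and at 141, 229.5 and 187.5 CPM with overexpression. The order of the libraries within each group differed from that of Fads2 only in knockout replicates 1 and 2, with replicate 3 lowest of the knockout and replicate 2 highest of the overexpression libraries for both genes. Fads1 was 2.75-fold higher, or 1.46 ± 0.24 on the log2 scale (standard error; adjusted p = 0.00196). When libraries were scaled to the median ratio of the epithelial genes in place of TMM, the median of all tested genes moved from -0.016 to -1.15 on the log2 scale. Fads1 was then higher by 0.34 (adjusted p = 0.181), and no longer past the threshold, and Fads2 by 0.55 (adjusted p = 0.039). Relative to the median of all genes under that scaling, they were higher by 1.49 and 1.70.

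Fads3, a homologue beside Fads2 that acts on sphingoid bases, did not share this rise. It was at 70.4, 98.0 and 64.1 CPM with knockout and at 32.3, 68.2 and 60.5 CPM with overexpression. The groups overlapped, and the difference of -0.53 ± 0.28 (log2, standard error) did not pass (adjusted p = 0.187). Under the epithelial scaling it was -1.68 (adjusted p = 0.000165), which is -0.53 relative to the median of all genes there. Within a library, the log2 ratio of Fads2 to Fads3 needs no scaling between libraries. It averaged -0.21 ± 0.29 with knockout and 2.01 ± 0.31 with overexpression (SD, n = 3 each), a difference of 2.23 on the log2 scale. The libraries did not overlap, and the two-sided exact permutation p of 0.1 is the smallest that 3 against 3 allows (0.125 adjusted over 5 ratios).

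Fads6, a member of the family whose substrate is not settled, was scarce. It had 38, 113 and 109 counts (1.11, 3.74 and 2.99 CPM) with knockout and 7, 18 and 25 counts (0.214, 0.609 and 0.632 CPM) with overexpression. All overexpression libraries lay below all knockout libraries, with the lowest value of each group in replicate 1. The difference was -2.42 ± 0.57 on the log2 scale (standard error; adjusted p = 0.0127).

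Scd1 and Scd2, the stearoyl-CoA desaturases, diverged. Scd1 was at 9.41, 22.1 and 17.3 CPM with knockout and at 1.46, 0.677 and 2.58 CPM with overexpression. The highest overexpression library was below the lowest knockout library, and Scd1 was 10.2-fold lower, or -3.35 ± 0.50 on the log2 scale (standard error; adjusted p = 0.00113). Within the knockout group, Scd1 and the fibroblast list were both lowest in replicate 1 and highest in replicate 2. Whether Scd1 transcripts and those of the fibroblast list come from the same cells was not tested.

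Scd2, the isoform known for its abundance in brain, was at 311, 262 and 265 CPM with knockout and at 240.4, 274 and 329 CPM with overexpression. Its groups overlapped, and the difference was 0.01 ± 0.17 on the log2 scale (standard error; adjusted p = 0.972). Under the epithelial scaling it was -1.14 (adjusted p = 0.000744), which lies 0.015 above the median of all genes there. The log2 ratio of Scd1 to Scd2 within a library fell from -4.14 ± 0.75 with knockout to -7.18 ± 0.60 with overexpression (SD, n = 3 each), a difference of -3.05 (exact permutation, two-sided p = 0.1, the smallest possible; adjusted p = 0.125). Its 6 values did not overlap between groups.

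**Figure D2:**
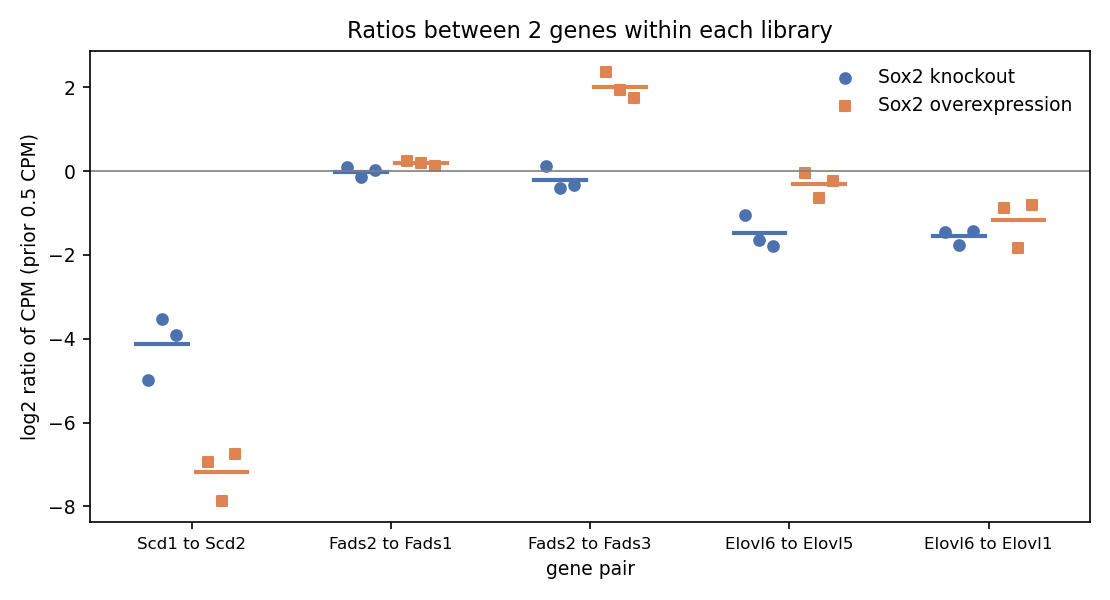
Log2 ratio of the CPM of 2 genes within each library, for the 3 knockout (circles) and 3 overexpression libraries (squares), with lines at the group means. The groups are apart for Scd1 to Scd2, Fads2 to Fads3, Elovl6 to Elovl5 and, narrowly, Fads2 to Fads1. They overlap for Elovl6 to Elovl1.

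Of the elongases, Elovl5 was the one called. Elovl5 (chromosome 9, 77917364 to 77984519, plus strand, GRCm38) lengthens the polyunsaturated product of Fads2 before Fads1 acts on it. It was at 45.2, 60.3 and 61.2 CPM with knockout and at 31.7, 33.9 and 35.8 CPM with overexpression. Although its groups did not overlap, the difference was a modest -0.72 ± 0.16 on the log2 scale (standard error; adjusted p = 0.0103), and the adjusted p was 0.0552 without knockout replicate 2. The 13 alternatives gave adjusted p-values between 5.17e-05 and 0.0552. Elovl5 thus changed in the opposite direction to the desaturases on either side of it in the pathway.

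Elovl6 (chromosome 3, 129532355 to 129638495, plus strand), the elongase of saturated and monounsaturated chains, was at 21.7, 19.0 and 17.4 CPM with knockout and at 30.6, 21.7 and 30.2 CPM with overexpression. Overexpression replicate 2 was level with knockout replicate 1, so the groups met. The difference was 0.50 ± 0.19 on the log2 scale (standard error; adjusted p = 0.0736), became 0.67 without overexpression replicate 2 (adjusted p = 0.0139), and was -0.61 under the epithelial scaling (adjusted p = 0.0484). Relative to the median of all genes under that scaling, Elovl6 was 0.54 higher. Its adjusted p-values lay between 0.0139 and 0.205 under the 13 alternatives.

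Elovl7 (chromosome 13, 108214404 to 108285683, plus strand) was at 35.1, 26.02 and 27.4 CPM with knockout and at 38.3, 36.4 and 33.6 CPM with overexpression, which differ by 0.29 ± 0.17 on the log2 scale (standard error; adjusted p = 0.215). Elovl1 (chromosome 4, 118428093 to 118432953, plus strand), an elongase of very long saturated chains, was at 60.4, 66.0 and 47.9 CPM with knockout and at 56.9, 78.6 and 53.1 CPM with overexpression. Its difference was 0.11 ± 0.20 on the log2 scale (standard error; adjusted p = 0.693). Neither gene passed the threshold with TMM scaling, and both were lower past it under the epithelial scaling, at -0.83 for Elovl7 and -1.004 for Elovl1 on the log2 scale, which is 0.32 and 0.15 above the median of all genes there.

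The ratios within a library set Elovl6 apart from Elovl5. Elovl6 to Elovl5 went from -1.49 ± 0.39 to -0.31 ± 0.30 on the log2 scale (SD, n = 3 each), with no overlap (difference 1.18, exact permutation p = 0.1, two-sided). Elovl6 to Elovl1 differed by 0.38, with overlapping groups (exact permutation p = 0.4, two-sided), and by 0.71 without overexpression replicate 2 or 0.19 without overexpression replicate 3. Fads2 to Fads1 differed by 0.20 (exact permutation p = 0.1), a small shift beside the 2.23 of Fads2 to Fads3.

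**Figure D3:**
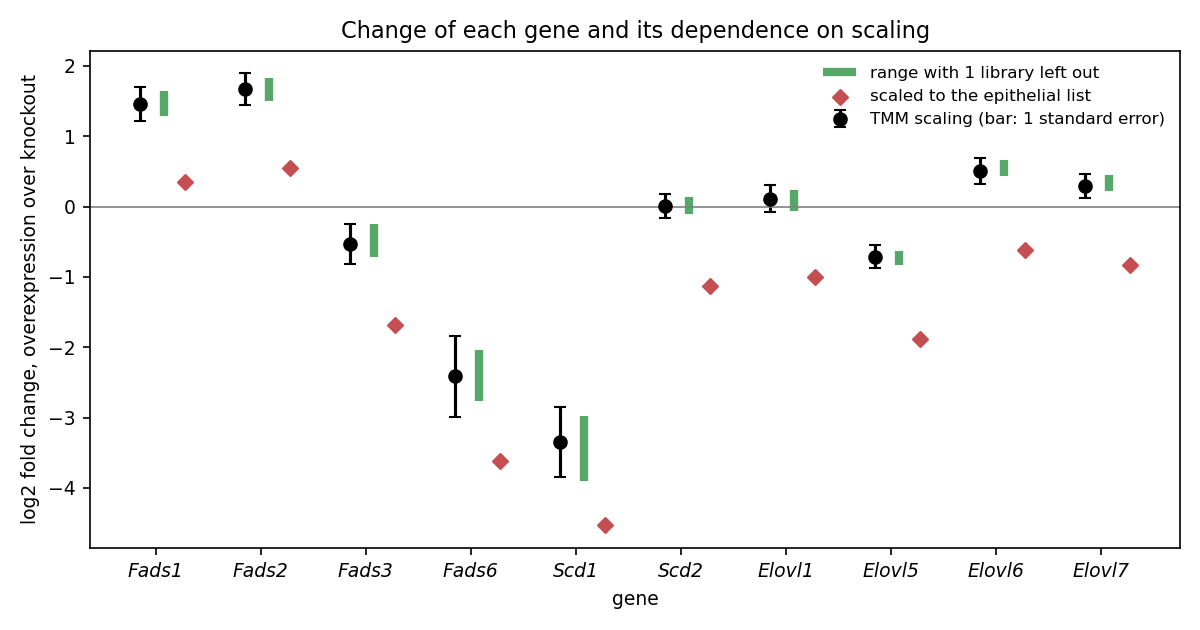
Log2 fold change of each gene, overexpression over knockout: black points with bars of 1 standard error for TMM scaling, green bars for the range when 1 library is left out, and red diamonds for scaling to the epithelial list. The diamonds lie below the black points for every gene, and those of Fads1 and Fads2 are the ones above 0.

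Levels of different genes were compared per kilobase of exon sequence. With knockout, Scd2 stood first at 51.2 ± 5.02 CPM per kilobase (SD, n = 3). Elovl1 (21.3 ± 3.40), Fads3 (20.4 ± 4.77) and Fads2 (20.2 ± 4.31) followed, then Elovl5 (15.8 ± 2.55) and Fads1 (14.1 ± 3.43). Each of these 5 lay within the sum of the SDs of its neighbour in the order. Within each knockout library, however, Elovl1, Fads3 and Fads2 were all above Fads1. Elovl1 was at 22.2, 24.2 and 17.6 and Fads1 at 14.9, 17.0 and 10.3 CPM per kilobase in replicates 1, 2 and 3. Elovl7 was lower at 7.35 ± 1.22, Scd1 (3.33 ± 1.31) and Elovl6 (3.02 ± 0.341) did not differ beyond their spread, and Fads6 was last at 0.393 ± 0.203 CPM per kilobase. With overexpression, Fads2 stood first at 64.3 ± 14.7, followed by Scd2 at 51.5 ± 8.23 and Fads1 at 38.7 ± 9.17. Neighbours in this order lay within the sum of their SDs, but the order was the same in each overexpression library. Elovl1 (23.1 ± 5.04), Fads3 (14.2 ± 4.97), Elovl5 (9.60 ± 0.580) and Elovl7 (8.999 ± 0.584) came after a step down from Fads1. Each of the 4 lay within the sum of the SDs of the others next to it, while Elovl1 was above Fads3, Elovl5 and Elovl7 in each overexpression library. Elovl6 was at 4.28 ± 0.785, Scd1 at 0.322 ± 0.195 and Fads6 at 0.0729 ± 0.0354 CPM per kilobase, each beyond that sum from the gene above it.

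As shares of the 6 desaturases, Fads2 went from 18.3% ± 2.01 to 37.9% ± 3.03 and Fads1 from 12.7% ± 1.78 to 22.8% ± 1.34 of the summed level per kilobase (SD, n = 3 each). Scd2 went from 47.0% ± 5.61 to 30.9% ± 4.59, Fads3 from 18.6% ± 2.99 to 8.18% ± 1.54, and Scd1 from 3.07% ± 1.22 to 0.197% ± 0.116. With TMM scaling the level of Scd2 was alike in both groups, so its smaller share goes with the larger sum. That sum was 109.6 ± 12.7 CPM per kilobase with knockout and 169 ± 32.4 with overexpression. Under the epithelial scaling the log2 fold change of Scd2 was -1.14, and sums were not taken there. Among the 4 elongases, Elovl5 went from 33.3% ± 5.91 to 21.04% ± 2.50, while Elovl1 was at 44.7% and 49.8%, Elovl7 at 15.6% and 19.7% and Elovl6 at 6.36% and 9.47%. The elongase sum overlapped between groups, at 47.5 ± 3.17 and 45.9 ± 4.36 CPM per kilobase. No test was run on the shares and sums. The shares need no scaling between libraries, whereas the sums depend on it.

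**Figure D4:**
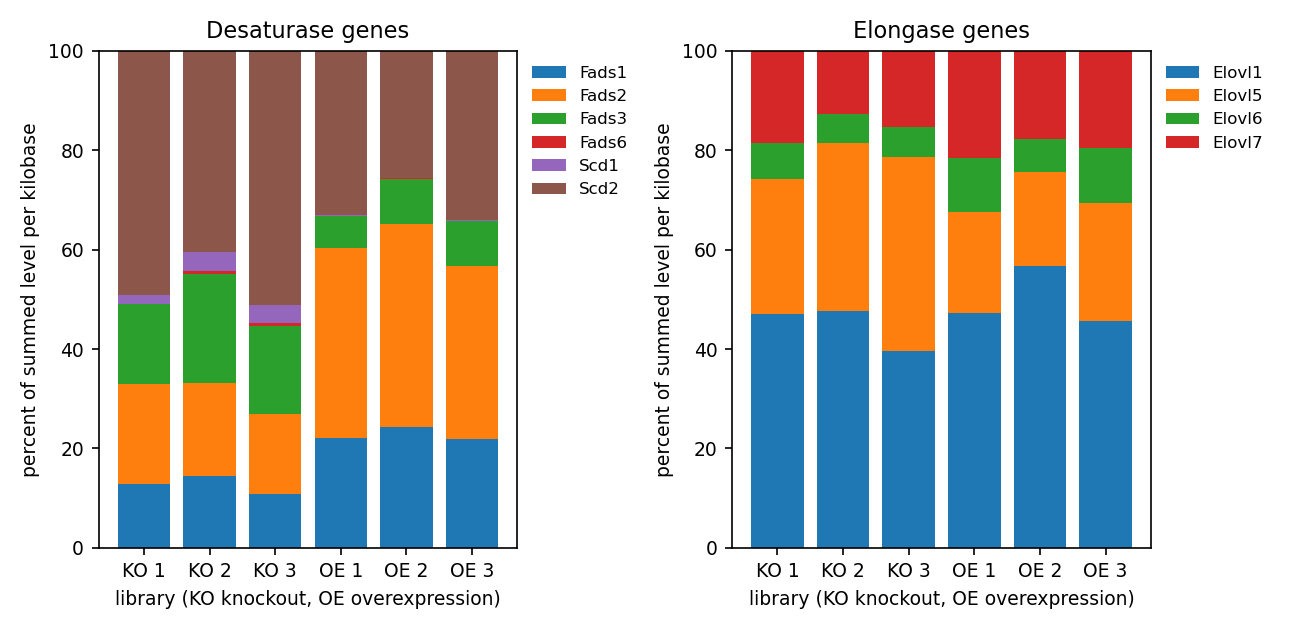
Share of each gene in the summed level per kilobase of the 6 desaturases (left) and 4 elongases (right), as percent, in each knockout (KO) and overexpression (OE) library. Fads1 and Fads2 together are the lower segments of the left bars and are larger in each overexpression library, while Fads3 and Scd1 are smaller.

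The Fads and Scd genes sit in 2 clusters on chromosome 19. Fads3 (10041569 to 10060110, plus strand), Fads2 (10062765 to 10101746, minus strand) and Fads1 (10182888 to 10196877, plus strand) span 155 kb of GRCm38. Within that span and 50 kb to either side, a window chosen after the values of the 3 genes were known, 10 genes were tested. Fads1 and Fads2 were the 2 higher ones. Best1, Rab3il1, Myrf and Dagla were lower, with log2 fold changes of -3.63, -5.77, -2.63 and -3.65, and Fen1 and Tmem258, next to Fads1, had 0.50 and 0.46 (adjusted p = 0.0974 and 0.127). Counts in overexpression replicates 1, 2 and 3 were few for Best1 (6, 1 and 9), Myrf (6, 5 and 8) and Dagla (14, 4 and 12). Rab3il1 had 12, 23 and 27. Over all tested genes 13.6% were higher and 18.0% lower. The genes of the window thus did not all move one way. In the Scd cluster (44203269 to 44407879), the tested genes were Scd3, Scd2, Scd4 and Scd1, and Scd1 was the one past the threshold. Scd3, at 0.794 CPM or less, differed by -1.18 on the log2 scale (adjusted p = 0.0694), and Scd4 by 0.082 (adjusted p = 0.891).

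Promoter windows from RefSeq (GRCm38.p6), from 250 bases before to 50 after the start, were used for 7 of the 10 genes, and those of Fads1, Scd1 and Scd2 were not analysed here. The windows were searched on both strands for CCAAT (the NF-Y motif), TCACNCC (the core of the sterol element read by SREBP factors) and ACAANG (a SOX motif). CCAAT letters were in the windows of Elovl5 and Fads3 and 1 of the 2 of Elovl1, and in 37.4% of all 32851 windows. TCACNCC was in that of Fads6 and in 15.6% of all, and ACAANG was in those of Elovl5 and Fads6 and in 41.2% of all. The windows of Fads2, Elovl6 and Elovl7 held none of these letters, and no matches overlapped. The stretches with CCAAT, or ATTGG on the other strand (capitals), are shown since they belong to the fallen Elovl5 and to a pair of genes not past the threshold, at chr9:77917284-77917362, chr4:118428048-118428072 and chr19:10041432-10041484, all on the plus strand. A match is a description of letters and no evidence of binding.

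Elovl5: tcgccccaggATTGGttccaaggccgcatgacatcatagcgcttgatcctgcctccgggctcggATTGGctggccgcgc

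Elovl1: ggccagccgcCCAATcagcaggcgc

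Fads3: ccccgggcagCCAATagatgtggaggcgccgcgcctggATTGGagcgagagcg

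Across the 6 libraries, the genes with the most similar profile were found by the root-mean-square difference of log2 CPM after each gene's mean was removed, among 8452 genes with an average log2 CPM of at least 4. Nearest to Fads1 were Eva1c (0.0976), Arhgdib (0.105) and Dmrta2 (0.105), and nearest to Fads2 were Macrod1 (0.107), Tgif2 (0.109) and Dmrta2 (0.113). Fads1 and Fads2 were 0.130 apart, and 9 genes were nearer to Fads1 than Fads2 was. Scd1 had Plod2 (0.222), Chl1 (0.245) and Sned1 (0.341) nearest, and Scd2 had Clk2 (0.0787), Dnaja4 (0.0796) and Fam168a (0.0804).

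The other genes of the pathway were taken from 8 lists, whose counts stand beside 13.6% higher and 18.0% lower among all tested genes. Of 8 further desaturases and elongases, 4 were tested (Scd3, Scd4, Degs1 and Elovl4) and 0 passed the threshold in the edgeR test or in DESeq2, and 1, Scd3, had an unadjusted p below 0.05 in edgeR; Degs1, the ceramide desaturase, was at 104 ± 6.95 and 128 ± 9.18 CPM (SD, n = 3 each; adjusted p = 0.134). Of 6 partners of the elongation cycle, Hacd4 and Hacd1, dehydratases, fell and 0 rose. Hacd4 went from 5.66, 11.3 and 6.58 CPM with knockout to 0.397, 0.237 and 0.405 CPM with overexpression, a difference of -4.47 on the log2 scale (adjusted p = 7.08e-05), and Hacd1 had -1.39 (adjusted p = 0.00162). Hsd17b12, the ketoacyl reductase of the cycle, was 0.44 higher on the log2 scale (adjusted p = 0.0754) and 0.68 lower under the epithelial scaling (adjusted p = 0.0136). The median of all tested genes under that scaling was -1.15 on the log2 scale.

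Desaturases draw electrons from cytochrome b5 and its reductases. Of 5 tested genes of that list 2 rose, Cyb5r3 (0.64, adjusted p = 0.0374) and Cyb5b (0.48, adjusted p = 0.0272; -0.65 under the epithelial scaling). Without any single knockout library or without overexpression replicate 3 the count was 0, and without overexpression replicate 2 it was 1. Of 8 tested genes of fatty acid synthesis 3 rose, Mcat, Slc25a1 and Acly, and 1 fell, Acacb. Over all tested genes, 13.6% rose and 18.0% fell. Mcat, which serves mitochondrial synthesis, stood at 1.01 (adjusted p = 0.0139; -0.12 under the epithelial scaling), and Acacb, the acetyl-CoA carboxylase of mitochondria, at -2.16 (adjusted p = 0.0081). The count of higher genes was 1 without any single knockout library. Over all tested genes, higher calls numbered 2519 with all libraries and 1774, 1446 and 1610 without knockout replicates 1, 2 and 3. Fasn, the fatty acid synthase, was at 255, 247 and 241 CPM with knockout and at 243, 398 and 298 CPM with overexpression (log2 fold change 0.34, adjusted p = 0.22; -0.81 and adjusted p = 0.00848 under the epithelial scaling). All tested genes had a median of -1.15 under the epithelial scaling.

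Of 16 tested regulators of lipid synthesis, 6 rose (Srebf1, Srebf2, Nr1h2, Rxra, Mlx and Mid1ip1) and 2 fell (Nr1h3 and Pparg), with a median log2 fold change of 0.41 against -0.016 for all genes. The shares over all tested genes were 13.6% rising and 18.0% falling. Srebf1, the SREBP factor of fatty acid genes, was at 129, 119 and 110.1 CPM with knockout and at 184, 294 and 232 CPM with overexpression, which is 0.99 higher on the log2 scale (adjusted p = 0.00458), and -0.15 (adjusted p = 0.552) under the epithelial scaling. Srebf2, the SREBP factor of cholesterol genes, had 1.04 (adjusted p = 0.00451), and -0.081 (adjusted p = 0.759) under that scaling. Insig1, which holds SREBP factors in the endoplasmic reticulum and is itself their target, was at 32.5 ± 1.56 and 33.0 ± 3.07 CPM (SD, n = 3 each; log2 fold change 0.02, adjusted p = 0.921). The count of rising regulators was 4 without knockout replicate 1, knockout replicate 2 or overexpression replicate 3, 3 without knockout replicate 3 and 8 without overexpression replicate 2. Higher calls over all tested genes were also fewer without any single knockout library. Under the epithelial scaling 0 were higher and 11 lower, where 73.9% of all tested genes were called and 97.4% of those calls were lower.

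The other lists shifted likewise under that scaling, with 0 genes higher in each. The genes called lower were then 2 of the further desaturases and elongases, 6 of the elongation partners, 4 of electron supply, 6 of fatty acid synthesis, 5 of the acyl-CoA list, 12 acyltransferases and 8 of the peroxisomal genes. These counts stand beside 73.9% of all tested genes called under that scaling, with 97.4% of the calls lower.

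Genes downstream of the enzymes were mixed, beside 13.6% rising and 18.0% falling among all tested genes. Of 8 tested acyl-CoA synthetases and acyl-CoA binding genes 1 rose, Slc27a4 (0.87, adjusted p = 0.00598; -0.27 under the epithelial scaling), and 0 fell; the count of rising ones was 2 without knockout replicate 1 or without overexpression replicate 1 or 2. Of 15 acyltransferases of phospholipids and glycerides 3 rose (Mboat1, Lpcat4 and Agpat2) and 3 fell (Agpat4, Lpcat1 and Dgat1). Mboat1, a lysophospholipid acyltransferase, was 0.997 higher on the log2 scale (adjusted p = 0.00275; -0.14 under the epithelial scaling), and Agpat4 fell from 9.29, 14.6 and 18.3 CPM to 0.122, 0.0677 and 0.126 CPM. Agpat4 had 4, 2 and 5 counts in overexpression replicates 1, 2 and 3, so the size of its fold rests on few counts. The count of rising acyltransferases was 1 without any single knockout library, and that of falling ones was 1 without knockout replicate 2 or 3 or overexpression replicate 1 or 3. Calls over all tested genes, higher and lower, were also fewer without any single knockout library. Of 9 tested genes of peroxisomal chain shortening 2 rose, Scp2 (0.90, adjusted p = 0.0011; -0.25 under the epithelial scaling) and Acox3, and 2 fell, Abcd2 (-4.90, adjusted p = 0.000308) and Ehhadh. The count of rising ones was 1 without knockout replicate 2 or 3 or overexpression replicate 1. Exons of Hacd4 overlap Focad on the other strand by 746 bases, those of Srebf1 overlap Rai1 by 109 and those of Mcat overlap Tspo by 53, so part of their counts may belong to these partners. Agpat4, Abcd2 and Hacd4 were named because they fell, so they were higher in the knockout libraries by that choice. The fibroblast and endothelial sums of the knockout libraries were also above those of every overexpression library. A link between these genes and the sums was not tested. The leukocyte sums of the knockout libraries overlapped those of the overexpression libraries, although 3 of the 5 tested leukocyte markers were lower and 0 higher. Ptprc, 1 of the lower markers, was at 10.6, 21.6 and 88.1 CPM in knockout replicates 1, 2 and 3. With overexpression it was at 0.427 to 0.541 CPM.

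**Figure D5:**
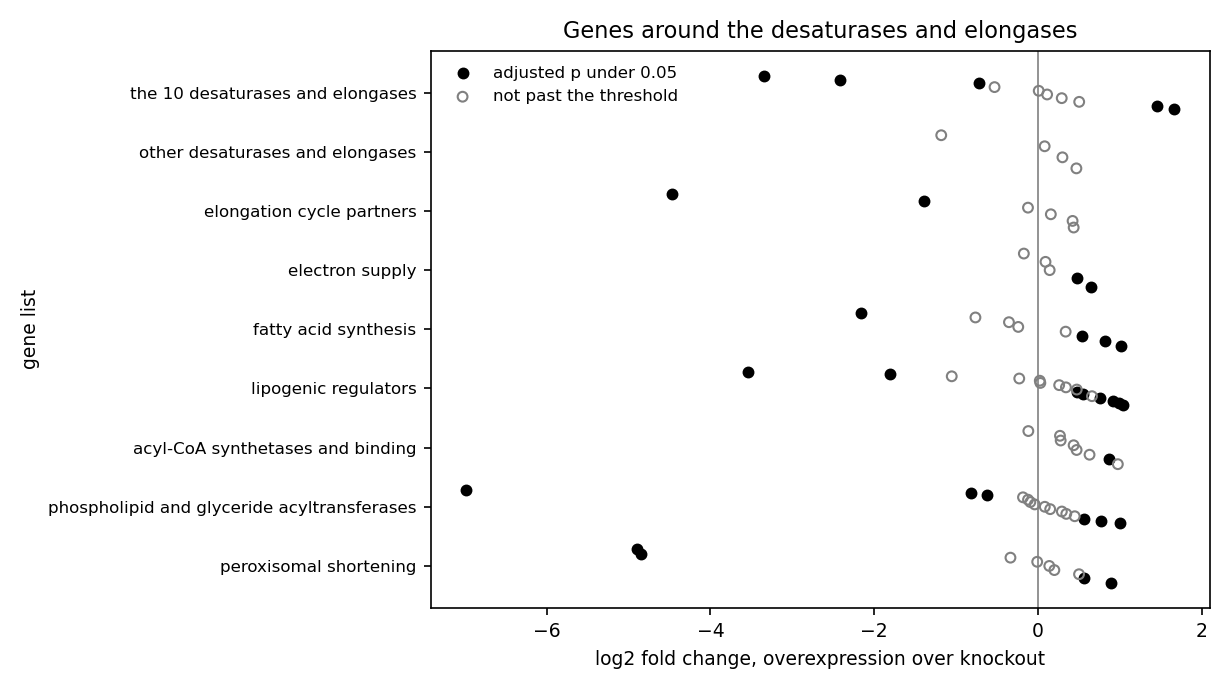
Log2 fold change (overexpression over knockout, TMM scaling) of each tested gene of the 10 desaturases and elongases and of the 8 other lists; filled points passed an adjusted p of 0.05 and open ones did not. The highest point is Fads2 at 1.67, and the low points include Agpat4 at -6.98, Abcd2 at -4.90 and Hacd4 at -4.47. The size for Agpat4 rests on 4, 2 and 5 counts in the overexpression libraries.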

How the data were processed

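The authors deposited raw counts per gene, whole numbers in 1 column per library. Per the submitters' processing notes, kallisto 0.44.0 and mm10 were used; their roles, the annotation, the strand setting and any rounding to whole counts are not given in the sources used here. Of 55481 rows, 96 name no mouse gene (spike-ins and reporters, at most 2.23e-05% of a library) and were left out. Symbols and positions are those of GENCODE M21 (GRCm38), matched for 55144 IDs.

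Low genes were dropped by filterByExpr (at its settings of 10 counts and a total of 15). The rest were scaled with TMM and tested in 1 quasi-likelihood fit of all 6 libraries (edgeR 4.0.16, R 4.3.3). P-values were adjusted by Benjamini-Hochberg over 18504 genes (threshold 0.05). The standard error is the log2 fold change divided by the square root of F. Ratios within a library used a prior of 0.5 CPM and exact permutation tests. A count of 0 allows 3 counts, 0.0759 to 0.101 CPM, which covers counting error only. The alternatives were RLE, upper-quartile and epithelial scaling, no filter, robust dispersion, a replicate block, DESeq2 1.42.0 and each library left out. List counts under these were added after the data were seen.

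The members, lists and alternatives were chosen with earlier results of these data known. Named are the 10 members and, in each pathway list, the gene with the smallest p past the threshold in each direction, plus Srebf1, Srebf2, Insig1, Fasn and Hsd17b12; in each marker list the most abundant gene, plus Adipoq, Plin1 and Mc5r; and the 3 nearest profiles to Fads1, Fads2, Scd1 and Scd2. Other names were chosen after their values were seen. Of the named genes, Col3a1, Pnpla2, Far2, Ptprc and Tek led their marker lists, with log2 fold changes of -8.22, 0.86, -0.37, -6.34 and -0.74. Pparg had at most 3 counts in an overexpression library, so no fold is given. Protein sequences were not used here.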

Additional observations from a re-analysis of the deposited data

Results flagged for a closer look

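The table has a row for the reporter mCherry, which no comparison uses. It held 8 counts in knockout replicate 3, above the 3 counts that a count of 0 allows, 1 count in knockout replicate 2 and 0 in the other 4 libraries.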

How the results depend on the processing

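Of 130 fits of the 10 genes under 13 alternatives, 116 kept direction and side of the threshold. With the sign kept, 2 lost the call and 2 gained it, and 10 fits changed sign. Among the sign changes, those of Scd2, Elovl1, Elovl6 and Elovl7 under epithelial scaling also passed the threshold. With epithelial scaling 13682 genes passed (350 higher, 13332 lower) and 9 of the 10 genes (1 higher, 8 lower). Signs then changed for Scd2 (-1.14), Elovl1 (-1.004), Elovl6 (-0.61), Elovl7 (-0.83), Cyb5b (-0.65), Mcat (-0.12), Srebf1 (-0.15), Srebf2 (-0.081), Insig1 (-1.11), Fasn (-0.81), Hsd17b12 (-0.68), Slc27a4 (-0.27), Mboat1 (-0.14), Scp2 (-0.25), Krt8 (-0.21) and Pnpla2 (-0.27). Of the calls made with epithelial scaling 97.4% were lower, against 56.9% with TMM. With upper-quartile scaling Scd2 was at -0.049 and Insig1 at -0.039. With 1 library left out, Scd2 lay between -0.10 and 0.13, Elovl1 between -0.061 and 0.24 and Insig1 between -0.038 and 0.082. The count of all higher genes was 1446 to 2599, with 1446 without knockout replicate 2 and 1610 without knockout replicate 3; 4 to 6 of the 10 genes passed. The differences of ratios kept their sign in each of these fits. With the replicate number as a block 5593 genes passed, and the same 2 and 3 of the 10 genes rose and fell; Cyb5b, alone of the genes followed, lost its call (adjusted p = 0.0533), and 5 regulators rose in place of 6. Same-numbered libraries correlated at 0.053, 0.056 and -0.047 in their deviations, against -0.12 to 0.073 for the other pairs. Not every library correlated best with its own number. Deviations within groups of 3 libraries cannot settle whether the numbers pair the libraries. The cause of these changes was not tested. Depth limits Fads6 and Scd1 most, with as few as 7 and 20 counts in a library.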
